A study of Mus musculus with 357 samples.

Results

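The transcripts of the D-type cyclins and of their kinase partners were followed in single mouse hematopoietic stem cells (HSCs). The 5 genes were taken by name from the 96 assays of the study: Ccnd1, Ccnd2 and Ccnd3, which encode cyclins D1, D2 and D3, and CDK4 and CDK6, which encode cyclin-dependent kinases. All 5 were measured in all 357 cells. The rule uses the gene names and no measured value.

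Cells were isolated after a chase of 5 weeks or of 2 weeks following induced labelling in Col1a1-tetO-H2B-mCherry mice, whose fluorescent histone is diluted at each division. At 5 weeks 91 cells were read on plate 1 and 83 on plate 2, and at 2 weeks 90 cells on plate 1 and 93 on plate 2. Every cell was a Lin-Sca1+c-kit+CD48-CD150+ bone marrow cell, and both groups carried the transgene, so neither is an unlabelled control. The sources used here give neither the animals' age nor what drives the transgene. No label names an animal, so each chase time was treated as 1 sample and no test was made between the times. The plates were compared instead, and an assay was called apart only when the values of the 5-week plates were both higher, or both lower, than those of the 2-week plates. A plate held 1 chase time, so plate and time cannot be told apart. With 2 plates against 2 a permutation test could not give a p below 0.333.

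The readout was the threshold cycle (Ct), the PCR cycle at which a product crosses the detection threshold. A Ct lower by 1 stands for about a doubling of template, and a gene was counted as detected at Ct 25 or below. The mean Ct of 12 assays detected in nearly all cells, with the 5 members left out, was 12.9 ± 0.64 at 5 weeks and 13.5 ± 0.52 at 2 weeks (SD over cells). A cell had 58.8 ± 5.71 detected assays at 5 weeks and 54.6 ± 5.36 at 2 weeks. The reference products of the 5-week cells thus came earlier by 0.58 cycles, and values below are given with and without centring on these assays. Among the genes of the sort, Kit had a product in 99.4% of 5-week and 98.9% of 2-week cells, Ly6a (Sca1) in 72.99% against 91.3%, Slamf1 (CD150) in 55.7% against 72.1% and Cd48 in 1.72% against 1.09%. Of 11 measured genes of other blood lineages, the B lineage factor Ebf1 was at 0, and the highest share was that of Cebpa, a granulocyte factor, with 59.8% of 5-week and 70.5% of 2-week cells. In share of cells 5 of the 11 were higher at 5 weeks with plates apart, against 42.7% of all 96 assays. These were erythroid or megakaryocyte genes: vwf (51.1% against 34.4%), Itga2b (51.1% against 39.9%), Gata1 (20.1% against 11.5%), Epor (29.9% against 21.3%) and Klf1 (7.47% against 4.92%). Lower were the macrophage receptor gene Csf1r (2.30% against 14.8%) and the lymphoid gene Dntt (6.90% against 8.74%), against 7.29% of all assays. Over detecting cells, the mean reference Ct minus the gene's own Ct differed by -0.21 for vwf, -2.41 for Gata1 and -0.21 for Epor. All of these were lower at 5 weeks with plates apart, while Itga2b (0.37) overlapped and Klf1 had too few detecting cells for a value. A cell held on average 2.97 and 2.55 of the 11 on the 5-week plates and 2.54 and 2.54 on the 2-week plates. Their part in the results was not tested.

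D-type cyclins are made in G1 in answer to growth factors. They bind CDK4 or CDK6, and the active pair phosphorylates the retinoblastoma family of pocket proteins, which releases E2F factors and lets a cell enter S phase. INK4 inhibitors bind the kinases, while the CIP/KIP proteins bind the assembled complexes. Mice lacking all D-type cyclins, or both kinases, fail in fetal hematopoiesis, and CDK6 is known to regulate how fast quiescent human HSCs enter the cycle.

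Ccnd2 and CDK4 were detected in every one of the 357 cells, so each cell held at least 1 D-type cyclin transcript together with a kinase partner. Ccnd3 was detected in 336 cells (94.1%), CDK6 in 307 (85.99%) and Ccnd1 in 190 (53.2%), at rank 26, 32 and 56 of the 96 assays by share of cells. The Ct medians over all detecting cells were 12.99 for Ccnd2, 13.5 for CDK4, 15.4 for CDK6, 15.9 for Ccnd3 and 18.7 for Ccnd1. These Ct values order the assays and not the number of transcripts, since assay efficiencies are not given here.

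**Figure D1:**
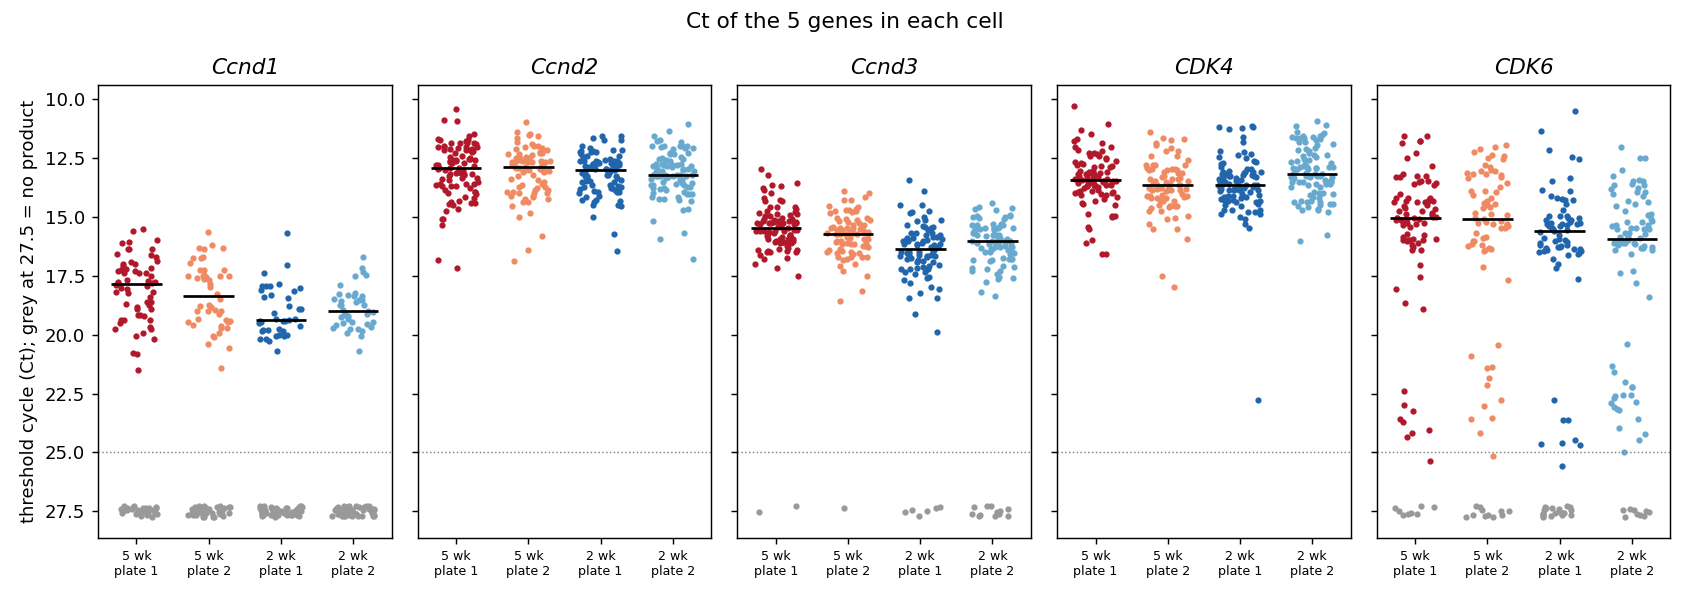
Each point is 1 cell, at the Ct of the gene named above the panel (early products at the top), with the plates along the horizontal axis and a black line at the median of the products. Grey points are cells with no product, and the dotted line is the limit of Ct 25. Ccnd2 and CDK4 have a product in all cells, with 1 late CDK4 product at Ct 22.8 on 2-week plate 1, Ccnd1 is missing in many cells, and CDK6 has a separate group of late products beyond Ct 20.

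Among the cyclins, Ccnd1 differed most between the times in its share of cells. Cyclin D1 is the family member best known as a target of growth factor signals. By plate, it was detected in 68.1 and 57.8% of 5-week cells, against 43.3 and 44.1% of 2-week cells. Both 5-week plates lay above both 2-week plates. Over the plates the share was 63.2% at 5 weeks (exact Clopper-Pearson 95% interval 55.6 to 70.4%) and 43.7% at 2 weeks (36.4 to 51.2%), a difference of 19.5 percentage points whose interval for counting error alone runs from 9.16 to 29.3.

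The Ccnd1 product also came earlier on the Ct as deposited. Its Ct had a lowest, median and highest value of 15.5, 17.8 and 21.5 on 5-week plate 1 and 15.7, 18.4 and 21.4 on 5-week plate 2. On the 2-week plates these were 15.7, 19.4 and 20.7 on plate 1 and 16.7, 18.99 and 20.7 on plate 2. The ranges overlapped widely, and the medians were earlier on both 5-week plates. A product at Ct 18 or below was found by plate in 36.3 and 27.7% of 5-week cells, against 7.78 and 6.45% of 2-week cells. That makes 56 cells at 5 weeks (32.2%, interval 25.3 to 39.7%) and 13 cells at 2 weeks (7.10%, 3.84 to 11.8%). With the reference Ct of each cell as covariate in a logistic fit, the difference in share was 9.48 points at Ct 25 and 12.8 points at Ct 18.

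Ccnd3, the cyclin with a known part in lymphoid and erythroid expansion, was detected in nearly every 5-week cell. The shares were 97.8 and 98.8% on the 5-week plates and 93.3 and 87.1% on the 2-week plates, with plates apart. The difference of 8.11 points (98.3% at 5 weeks, interval 95.04 to 99.6%, and 90.2% at 2 weeks, 84.9 to 94.1%) came to 4.94 when 2-week plate 2 was left out and to 5.68 with the covariate. The lowest, median and highest Ct were 12.98, 15.5 and 17.5 on 5-week plate 1 and 13.9, 15.7 and 18.6 on 5-week plate 2. They were 13.4, 16.4 and 19.9 on 2-week plate 1 and 14.4, 16.04 and 18.3 on 2-week plate 2. Ccnd3 products thus had earlier medians on both 5-week plates, with overlapping ranges.

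Of the 5 genes 2, Ccnd1 and Ccnd3, were apart in detection, both higher at 5 weeks, while 42.7% of all 96 assays were higher in this way. At Ct 18 the count was 3 of 5, with CDK6 added, against 43.8% of all assays. The members' shares of 2 and 3 in 5 lay near this background.

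**Figure D2:**
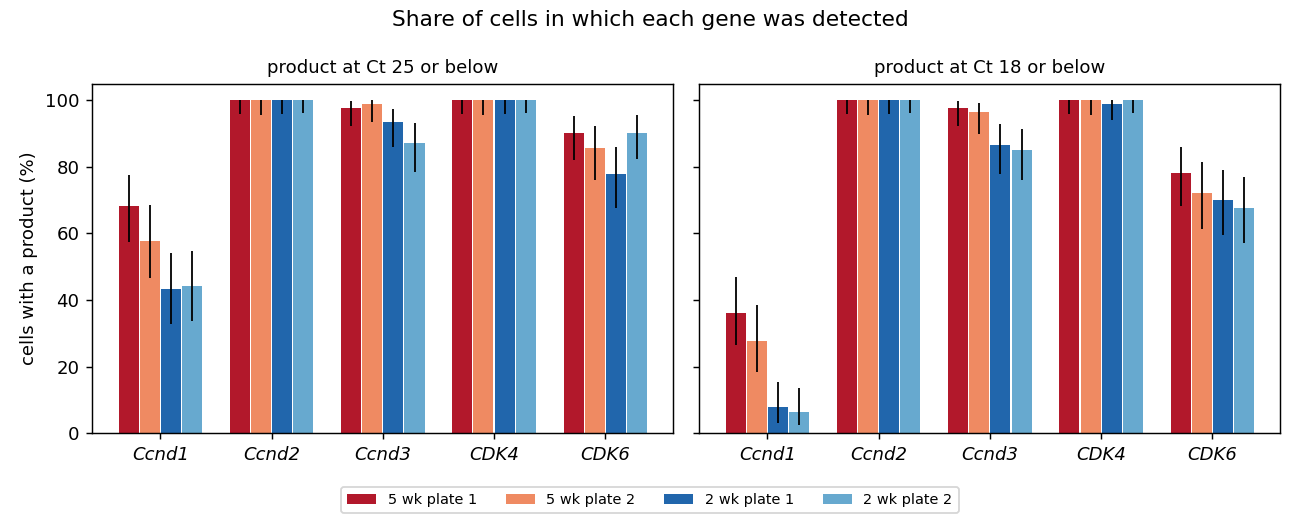
Bars give the percentage of cells with a product on each plate, at Ct 25 or below (left) and Ct 18 or below (right), with exact 95% intervals as lines. The 5-week bars of Ccnd1 stand at 68.1 and 57.8% against 43.3 and 44.1% on the left, and at 36.3 and 27.7% against 7.78 and 6.45% on the right.

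Ccnd2, the D-type cyclin found in all cells, barely shifted in Ct. The lowest, median and highest values were 10.4, 12.9 and 17.2 on 5-week plate 1 and 10.97, 12.9 and 16.9 on 5-week plate 2. They were 11.5, 13.001 and 16.5 on 2-week plate 1 and 11.1, 13.2 and 16.8 on 2-week plate 2. The 5-week plates reached both earlier and later than the 2-week plates, and the ranges overlapped. Level was the mean reference Ct minus the gene's own Ct in a cell, in log2 units, averaged over detecting cells. On this scale the Ccnd2 level was -0.26 and -0.05 on the 5-week plates and 0.34 and 0.29 on the 2-week plates, a difference of -0.48. The direction depended on the centring: it was 0.10 with plates still apart on the Ct as deposited, -0.0047 with overlapping plates when centred on the housekeeping genes Actb and Gapdh, and -0.18 relative to the plate median of all assays.

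CDK4, the other transcript found in all cells, had the lowest, median and highest Ct of 10.3, 13.5 and 16.6 on 5-week plate 1 and 11.4, 13.7 and 17.98 on 5-week plate 2. The same values were 11.2, 13.6 and 22.8 on 2-week plate 1 and 10.9, 13.2 and 16.03 on 2-week plate 2. The raw Ct therefore overlapped between the times. The centred level was -0.64 and -0.67 on the 5-week plates and -0.13 and 0.37 on the 2-week plates, a difference of -0.78. Single pairs of a 5-week and a 2-week plate differed by between -1.04 and -0.51. CDK4 was lower at 5 weeks with plates apart relative to the 12 assays, to Actb and Gapdh (-0.31) and to the plate median (-0.48), and overlapped on the Ct as deposited (-0.20). The reference assays were not constant themselves. Relative to the mean of the 12, Gapdh (-0.64), Hlf (-0.62) and Actb (-0.31) were lower at 5 weeks with plates apart. Nfe2 (0.86) and Zfpm1 (0.66) were higher with plates apart. The Ccnd2 difference of -0.48 lay within this range, and that of CDK4 somewhat below it.

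Levels of the other 3 members overlapped between the times when centred on the 12 assays. The Ccnd1 level was -5.37 and -5.45 on the 5-week plates against -5.66 and -5.42 on the 2-week plates, and that of Ccnd3 was -2.66 and -2.76 against -2.89 and -2.67. CDK6 stood at -2.86 and -2.64 against -2.74 and -3.59. Of the 5 members 0 were higher and 2 lower with plates apart, while the 80 assays that had a level were higher in 22.5% and lower in 46.2% of cases. The centring moved the median difference over these 80 assays, which was -0.21 with the 12 assays and 0.37 on the Ct as deposited. Relative to the plate median 3 members were higher (Ccnd1 by 0.49, Ccnd3 by 0.36, CDK6 by 0.68), against 41.2% of assays. Ccnd2 and CDK4 were lower on that scale, against 17.5% of assays. On the Ct as deposited 4 members were higher, CDK4 being the exception, against 61.2% of assays.

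The balance among the cyclins needs no reference assay, since both products were read in the same cell. The gap of Ccnd2 minus Ccnd1 averaged -5.37 and -5.60 cycles on the 5-week plates, in 62 and 48 cells with both products. On the 2-week plates it averaged -6.12 and -5.88 cycles, in 39 and 41 cells. Ccnd2 came earlier than Ccnd1 in all 190 cells, and the gap was narrower at 5 weeks by 0.52 cycles with plates apart. The gap of Ccnd2 minus Ccnd3 averaged -2.40 and -2.70 cycles on the 5-week plates (89 and 82 cells) and -3.27 and -2.90 on the 2-week plates (84 and 81 cells). It was narrower by 0.55 cycles, and by 0.36 without 2-week plate 1. Relative to Ccnd2 in the same cell, the products of both other cyclins thus came earlier at 5 weeks, by similar amounts.

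The kinases showed the same kind of shift. CDK4 minus CDK6 averaged -2.24 and -2.09 cycles on the 5-week plates (82 and 71 cells) and -2.68 and -3.95 on the 2-week plates (70 and 84 cells). The difference of 1.20 cycles was 0.51 without 2-week plate 2, and 0.78 with plates apart when only the early CDK6 products described next were used. Among the cells with both, CDK4 came first in 84.1 and 81.7% of the 5-week cells by plate, against 95.7 and 97.6% of the 2-week cells. Gaps were often apart: of 2778 assay pairs with enough cells, 62.6% had plates apart in either direction, and the 3 gaps here are read against that.

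**Figure D3:**
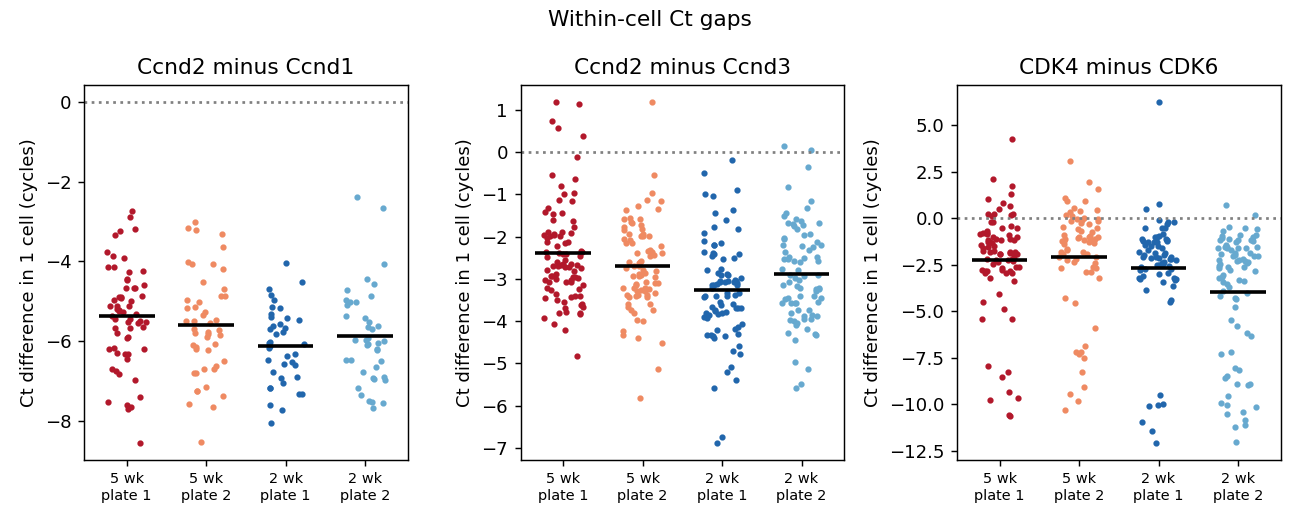
Each point is the Ct difference between a pair of genes in 1 cell that detected both, by plate, and black lines are plate means. The means of the 5-week plates lie closer to 0 than those of the 2-week plates in all 3 panels, for CDK4 minus CDK6 at -2.24 and -2.09 against -2.68 and -3.95.

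CDK6 stood apart from the other members in having products in separate Ct ranges. The product lay between Ct 10.5 and 18.9 in 261 cells and between Ct 20.4 and 25.6 in 49, with none between these ranges. The late range had its median at Ct 23.2, and a dye that binds any double-stranded DNA does not tell a rare transcript from a non-specific product. The melting curves that could bear on this were not used here. The late products were found in 9 and 12 cells of the 5-week plates, against 8 and 20 cells of the 2-week plates.

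Detection of CDK6 overlapped between the times at Ct 25, with 90.1 and 85.5% of 5-week cells by plate against 77.8 and 90.3% of 2-week cells. The difference of 3.78 points turned to -2.39 without 2-week plate 1, and to -2.05 with the reference Ct as covariate. Early products alone were found by plate in 81.3 and 72.3% of 5-week cells, against 70.0 and 68.8% of 2-week cells. That difference was 7.61 points with plates apart, and -5.52 with the reference Ct as covariate. The level of the early products differed by 0.05 with plates overlapping. The lowest, median and highest Ct of all products up to 25 were 11.6, 15.03 and 24.4 on 5-week plate 1 and 11.9, 15.05 and 24.2 on 5-week plate 2. They were 10.5, 15.6 and 24.7 on 2-week plate 1 and 12.04, 15.9 and 24.999 on 2-week plate 2.

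**Figure D4:**
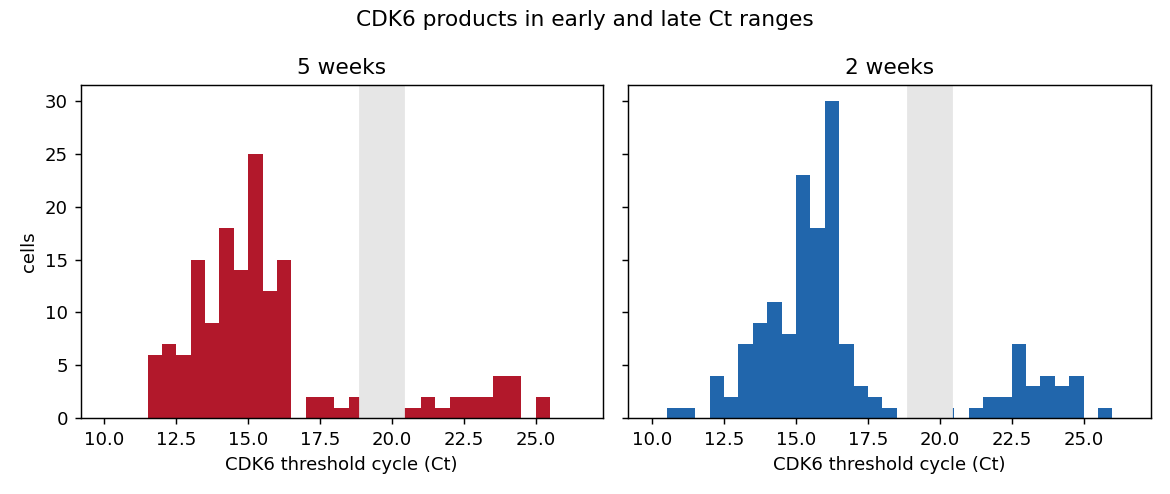
Histograms of the CDK6 Ct in bins of equal width, for the 5-week cells (left) and the 2-week cells (right), with the number of cells on the vertical axis. The shaded stretch between Ct 18.9 and 20.4 holds no product at either time, and 49 products lie beyond it.

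Cells differed in which of the 5 transcripts they held together. All 5 were found together in 61.5 and 53.01% of 5-week cells by plate, against 34.4 and 36.6% of 2-week cells. Over both plates this was 57.5% at 5 weeks (interval 49.8 to 64.9%) and 35.5% at 2 weeks (28.6 to 42.9%). The 3 cyclins were together in 62.6% of 5-week and 39.3% of 2-week cells. Ccnd2 was the only cyclin in 2 cells at 5 weeks (1.15%) and in 10 at 2 weeks (5.46%), 8 of them on 2-week plate 2. Ccnd1 was found without Ccnd3 in 1 of 110 Ccnd1-detected cells at 5 weeks and in 8 of 80 at 2 weeks. By plate, Ccnd3 was detected in 98.4 and 100% of Ccnd1-detected cells at 5 weeks and in 96.6 and 97.1% of Ccnd1-undetected ones. At 2 weeks these shares were 89.7 and 90.2% in Ccnd1-detected cells and 96.1 and 84.6% in Ccnd1-undetected ones. Ccnd3 was thus common with and without Ccnd1, and rarer with it on 2-week plate 1.

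Since Ccnd2 and CDK4 were in every cell, a cell with all 5 transcripts is a cell with Ccnd1, Ccnd3 and CDK6. The share of this combination lay close to, and somewhat above, the product of the single shares on every plate. Ccnd1, Ccnd3 and CDK6 were together in 61.5% on 5-week plate 1, where the product of their shares is 60.04%, and in 53.01% on 5-week plate 2, where it is 48.9%. On 2-week plate 1 the values were 34.4 and 31.5%, and on 2-week plate 2 they were 36.6 and 34.7%. Among the pairs of these genes, Ccnd1 with CDK6 departed most, on 2-week plate 1, at 38.9% against a product of 33.7%. CDK6 was the rule in cells with and without Ccnd1. It was found by plate in 91.9 and 91.7% of Ccnd1-detected cells at 5 weeks, against 89.7 and 90.2% at 2 weeks. Ccnd1-undetected cells had it in 86.2 and 77.1% of cases at 5 weeks, against 68.6 and 90.4% at 2 weeks. The CDK4 level was -0.42 and -0.50 in Ccnd1-detected cells at 5 weeks and -1.12 and -0.91 in Ccnd1-undetected ones. At 2 weeks it was 0.04 and 0.35 in Ccnd1-detected cells and -0.26 and 0.39 in Ccnd1-undetected ones, so the Ccnd1-detected cells stood higher on every plate except 2-week plate 2.

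Detection moved with the reference Ct of a cell. When each plate's cells were divided into 3 classes of about equal size (early, middle and late reference Ct), Ccnd1 was detected in 83.9, 63.3 and 56.7% of these classes on 5-week plate 1 and in 75, 59.3 and 39.3% on 5-week plate 2. The same classes had 50, 50 and 30% on 2-week plate 1 and 48.4, 32.3 and 51.6% on 2-week plate 2. Ccnd1 was thus found in fewer cells at later reference Ct on both 5-week plates, and in no such order on 2-week plate 2. CDK6 was detected in 93.5, 90 and 86.7% of the classes on 5-week plate 1 and in 92.9, 81.5 and 82.1% on 5-week plate 2. It was detected in 93.3, 80 and 60% on 2-week plate 1 and in 96.8, 93.5 and 80.6% on 2-week plate 2, so the early class was highest on every plate. The reference Ct also differed between the times, as given above, and its part in the differences was not tested beyond the covariate fits.

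Several pairs of the 5 transcripts varied together across cells more closely at 5 weeks than at 2 weeks. Correlations are Spearman's rho within a plate, over all its cells with undetected products placed at Ct 25, and are descriptions of weak to moderate relations in cells that share a plate. On the Ct as deposited, Ccnd1 and CDK4 had rho of 0.57 and 0.45 on the 5-week plates against 0.18 and 0.02 on the 2-week plates. Ccnd2 and CDK4 had 0.59 and 0.59 against 0.19 and 0.40, and Ccnd1 and Ccnd2 had 0.53 and 0.50 against 0.29 and 0.25. Of the 10 pairs 6 were higher on both 5-week plates and none lower, while 26.2% of 3240 assay pairs were higher. All assays with a share of 10% or more on every plate enter the 3240 pairs, which were not matched to the members in detection. The 10 pairs share genes and cells, so they are not independent of one another.

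When centred on the 12 reference assays, 6 of the 10 pairs were higher at 5 weeks, against 15.8% of all pairs. Of these, 5 were also higher on the Ct as deposited: Ccnd2 with Ccnd3 dropped out and Ccnd2 with CDK6 came in. Ccnd1 and CDK4 then had rho of 0.48 and 0.30 on the 5-week plates against 0.11 and -0.17 on the 2-week plates. Ccnd2 and CDK4 had 0.43 and 0.37 against -0.10 and 0.22. With Actb and Gapdh in place of the 12 assays, 5 pairs were higher, against 17% of all pairs, and Ccnd1 with Ccnd2 was lower (0.25 and 0.27 against 0.29 and 0.29). Among cells that had both products, Ccnd1 and CDK4 kept a higher centred rho at 5 weeks, at 0.46 and 0.47 against 0.15 and -0.09, while Ccnd1 and Ccnd2 overlapped, at 0.48 and 0.22 against 0.45 and 0.20. The reference Ct itself spread wider at 5 weeks, with SDs of 0.59 and 0.66 cycles against 0.53 and 0.51, and its part in the higher correlations was not tested.

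The kinase pair and the pair of CDK4 with Ccnd3 were positive on every plate. CDK4 and Ccnd3 had a centred rho of 0.27 and 0.27 on the 5-week plates and 0.35 and 0.25 on the 2-week plates, and CDK4 and CDK6 had 0.21 and 0.34 against 0.34 and 0.13. Of the 10 pairs 9 were above 0 on all plates on the Ct as deposited, against 40.5% of all pairs, and 4 were when centred, against 30.3%. Here too the background was not matched in detection.

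**Figure D5:**
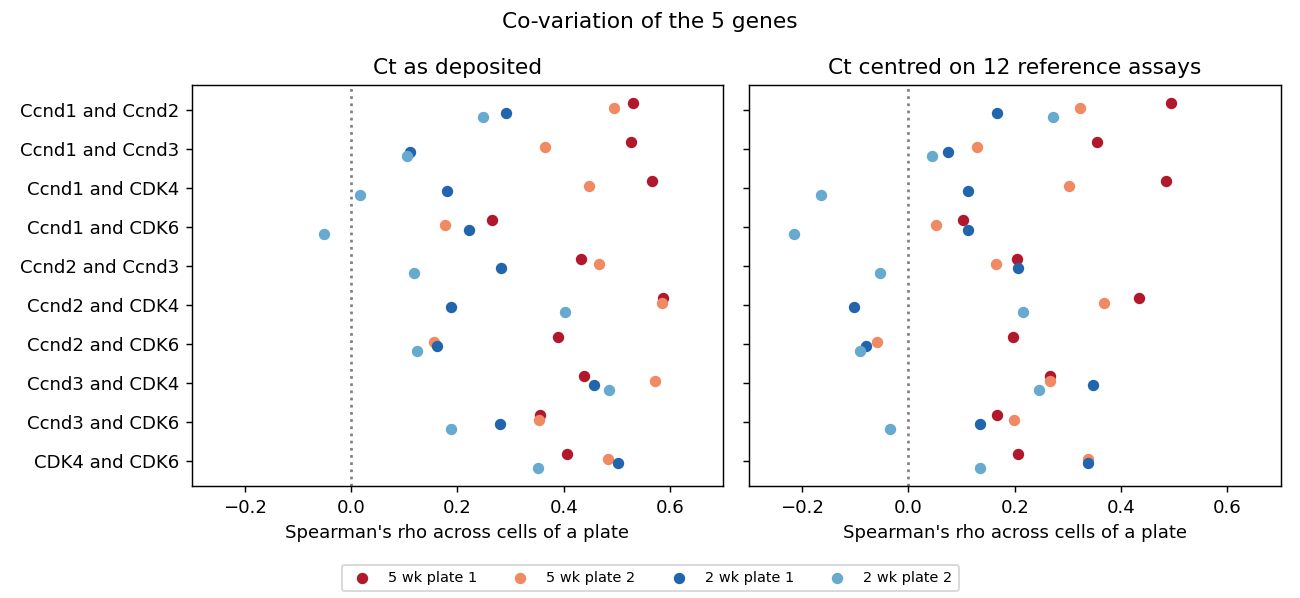
Each row is a pair of the 5 genes, and each point the Spearman's rho across the cells of 1 plate, on the Ct as deposited (left) and centred on the 12 reference assays (right). For Ccnd1 and CDK4 the 5-week plates lie at 0.57 and 0.45 on the left against 0.18 and 0.02 for the 2-week plates, and 6 pairs in each panel have both 5-week points to the right of the 2-week points.

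The assays most like each member were named by the lowest centred rho over the 4 plates. CDK4 was most like Gapdh (0.50 to 0.58), Actb (0.41 to 0.50) and Trp53, which encodes p53 (0.32 to 0.43), all of which belong to the reference set. Hlf, an HSC transcription factor also in that set, was its most negative partner (-0.35 to -0.24). The assays most like Ccnd2 included the transglutaminase gene Tgm2 (0.18 to 0.40) and Ccnd1 (0.17 to 0.49). Those most like Ccnd1 in turn included Ccnd2 and Tgm2 (0.14 to 0.31). The most negative partners of Ccnd1 and Ccnd2, Flt3 (-0.17 to -0.03) and Kit (-0.15 to -0.12), stayed close to 0.

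Ccnd3 was most like CDK4, Gapdh (0.19 to 0.33) and CDK2, the kinase of S-phase entry (0.18 to 0.32). CDK6 was most like Myc, a transcription factor of growth genes (0.16 to 0.43), Actb (0.15 to 0.31) and Tcf3, which encodes the E2A proteins (0.14 to 0.29). Ly6a was the most negative partner of CDK6 (-0.43 to -0.31) and also of Ccnd3 (-0.24 to -0.07). Among cells with both products the rho of CDK6 and Ly6a was -0.34 and -0.28 on the 5-week plates and 0.02 and -0.32 on the 2-week plates, so 2-week plate 1 lacked the relation there. The median Ly6a Ct, with undetected products at Ct 25, was 14.97 and 15.6 in the cells with early CDK6 products on the 5-week plates and 13.7 and 13.7 in those with no CDK6 product. On the 2-week plates it was 14.1 and 13.6 in cells with early CDK6 products and 13.2 and 12.96 in those without. Ly6a therefore came later in cells with early CDK6 products than in cells with none on each of the 4 plates. Ly6a was picked by its rho with CDK6 in these same cells, so this restates that rho and adds no separate support. Cells with no CDK6 product were few, with 8 and 11 on the 5-week plates and 19 and 9 on the 2-week plates.

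Myc varied with both kinases. The centred rho of CDK6 and Myc was 0.26 and 0.43 on the 5-week plates and 0.16 and 0.25 on the 2-week plates, and that of CDK4 and Myc was 0.24 and 0.22 against 0.23 and 0.10. Among cells with both products that of CDK4 and Myc was -0.01 on 2-week plate 2. Ccnd2 and Myc, over all cells, had a centred rho of 0.08 and 0.15 on the 5-week plates and -0.18 and 0.05 on the 2-week plates. Myc binds the E-box CACGTG together with its partner Max. The stretches before the starts of the kinase genes are shown with that motif in capitals. They are the 250 bases before the RefSeq start, from the RefSeq table of build GRCm38.p6, both on the plus strand and read 5′ to 3′, at chr10:127063285-127063534 for Cdk4 and at chr5:3343643-3343892 for Cdk6.
Cdk4: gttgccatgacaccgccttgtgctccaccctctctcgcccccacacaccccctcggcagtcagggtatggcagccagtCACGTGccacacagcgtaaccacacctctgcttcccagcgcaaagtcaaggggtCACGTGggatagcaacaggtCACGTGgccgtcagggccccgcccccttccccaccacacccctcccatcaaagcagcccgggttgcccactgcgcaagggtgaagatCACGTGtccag
Cdk6: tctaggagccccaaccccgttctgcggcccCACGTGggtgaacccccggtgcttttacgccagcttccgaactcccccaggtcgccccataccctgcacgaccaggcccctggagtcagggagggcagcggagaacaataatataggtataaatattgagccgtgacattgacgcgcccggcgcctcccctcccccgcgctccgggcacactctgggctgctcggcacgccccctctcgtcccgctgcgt
The E-box, which reads the same on both strands, occurs 4 times before Cdk4 and 1 time before Cdk6, and 0 times in either Ccnd3 window of the table. It occurs at least once in 6.02% of 32851 windows of this length in the table, and 4 or more times in 7 of them. An E2F motif, TTTNNCGC with N for any base, was searched as well. That motif occurs 1 time before Cdk6, 0 times before Cdk4 and 0 times in the Ccnd3 windows, and in 4.28% of all windows. The rho of Ccnd3 and Myc was not followed here. A match is a description of these letters only, and whether Myc acts on these genes was not tested.

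The spread of CDK4 and Ccnd2 between cells can be set beside that of other widely detected genes. Over detecting cells, the SD of the centred Ct of CDK4 was 0.92 and 0.82 cycles on the 5-week plates and 1.20 and 0.85 on the 2-week plates, and that of Ccnd2 was 1.00 and 0.85 against 0.80 and 0.91. By their medians they ranked 3 and 4 of the 14 assays found on each plate in 95% of cells or more, below Hlf and Trp53. The SD of 1.20 for CDK4 on 2-week plate 1 was 0.77 without the single cell at Ct 22.8, and Ccnd2 then ranked 3 and CDK4 6. The other 12 are the reference set itself, whose own Ct enters the centring. CDK6 had an SD between 2.83 and 3.35 cycles, over its early and late products.

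The genes around the D-type cyclins in the pathway were taken from fixed lists, of which 19 of 40 genes were measured. Of these 19, 6 were higher in detection with plates apart and 1 was lower, against 42.7 and 7.29% of all assays, and the median difference was 0.19 points beside 2.85 over all assays. Among the CIP/KIP inhibitors, Cdkn1b (p27) was detected by plate in 89.01 and 87.95% of 5-week cells against 46.7 and 54.8% of 2-week cells, Cdkn1c (p57) in 56.04 and 60.2% against 48.9 and 51.6%, and Cdkn1a (p21) in 4.40 and 1.20% against 10.0 and 13.98%. All 3 thus had plates apart, the first pair higher and Cdkn1a lower. Of 3 INK4 inhibitors, which act on CDK4 and CDK6 directly, Cdkn2d (p19) was higher at 73.6 and 74.7% against 71.1 and 66.7%. Cdkn2c (p18) overlapped with a difference of 5.80 points, and Cdkn2a overlapped at 1.72 and 5.46% of cells.

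The pocket proteins that the kinases phosphorylate overlapped in share of cells. Rb1, Rbl1 (p107) and Rbl2 (p130) differed by 2.97, -0.98 and 3.32 points. In centred level Rb1 (-0.38) and Rbl1 (-0.49) were lower with plates apart, and Rbl2 overlapped. Of 4 later cell cycle genes, CDK2 was higher, at 71.4 and 75.9% of cells against 53.3 and 55.9%, and 3 overlapped: Ccne1 (cyclin E1), the licensing factor Cdt1 and its inhibitor GMNN, which differed by -1.65, -5.99 and -2.51 points. Of 6 upstream factors 2 were higher, the immediate early gene Fos at 52.7 and 27.7% against 13.3 and 12.9%, and Mdm2, the regulator of p53, at 82.4 and 67.5% against 53.3 and 50.5%. Jun and Egr1, also immediate early genes, overlapped, with differences of -12.5 and -2.48 points. In centred level, several of the genes found in more cells were lower with plates apart: CDK2 (-0.30), Cdkn1c (-0.65), Cdkn2d (-0.37) and Fos (-3.54). Cdkn1b (-0.01) and Mdm2 (0.02), also found in more cells, overlapped in level. The Fos level differed widely by plate, at -8.12 and -3.93 on the 5-week plates against -3.69 and -2.76 on the 2-week plates. Single pairs of a 5-week and a 2-week plate differed in Fos by between -5.36 and -0.24. In level, 1 of the 16 list members with a value was higher and 10 were lower, against 22.5 and 46.2% of all assays.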

How the data were processed

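Per the labels' protocols, single cells were sorted into lysis buffer, reverse transcribed, pre-amplified for 22 cycles with 96 assays, diluted 5 times and read in 30 cycles of EvaGreen PCR on a microfluidic array. Ct values were deposited by the authors without normalization, and 999 stands for no product. Of 34272 reactions 40.8% had none, and the others ran from Ct 8.56 to 27.6. Wells without a cell were not analysed here, and the Ct software is not given in the sources used here.

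Wells with under 20% of assays detected were to be left out, and 0 were. The reference was the 12 non-member assays with products in 95% or more of each plate's cells (Trp53, Zfpm1, Kit, Hlf, Gata2, Lmo2, Ldb1, Meis1, Etv6, Nfe2, Actb, Gapdh). Levels needed 10 detecting cells per plate (80 assays), and correlations a share of 10% on every plate (81 assays). Shares carry exact Clopper-Pearson 95% intervals and their differences Newcombe intervals, which cover counting error only. All assays were computed and the members and list genes printed. The members and lists were chosen with earlier results of these data known. Named genes were the members, up to 4 per list by difference in share, and for each member the 3 most and 1 least correlated assays, of which 2 are not reported here, with Myc and Ly6a followed further after their values were seen.

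Of the 5 member names 3 matched RefSeq symbols as printed and 2 in another case, and 3 had a promoter entry. On simulated plates of 96 assays, a change of 20 points was recovered as 19.5, 1 log2 unit as 0.96 and a gap of 1 cycle as 0.82. The simulation had no plate effect, no shift of the reference Ct between the times and detection independent of Ct. It therefore checks the arithmetic only and cannot show how these features of the data act on the results. Python 3.11.15, pandas 2.3.3, numpy 2.4.6, scipy 1.17.1 and matplotlib 3.10.9 were used.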

Additional observations from a re-analysis of the deposited data

How the results depend on the processing

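The differences in share of Ccnd1 and Ccnd3 and the 3 within-cell gaps kept their direction under every alternative run on them. Where plates could be compared they stayed apart. Leaving out a plate or weighting the plates equally could not change this, since plates that are apart remain so. These alternatives bear on the size of a difference only. A Ct limit of 23, no Ct limit and no well filter left the share differences unchanged, at 19.5 points for Ccnd1 and 8.11 for Ccnd3. Leaving out each plate in turn gave 14.1 to 24.4 points for Ccnd1, 4.94 to 11.2 for Ccnd3 and -2.39 to 10.2 for CDK6. It gave 0.40 to 0.65 cycles for Ccnd2 minus Ccnd1, 0.36 to 0.73 for Ccnd2 minus Ccnd3 and 0.51 to 1.78 for CDK4 minus CDK6. With the number of other detected assays as covariate the shares of Ccnd1, Ccnd3 and CDK6 differed by 13.5, 5.81 and 0.76 points. Without 1 of some plates the CDK6 share, and the levels of Ccnd1, Ccnd3 and CDK6, were apart where all 4 plates overlapped. Levels depended on the scale. Without centring the differences were 0.77 for Ccnd1, 0.10 for Ccnd2 (the sign turned), 0.65 for Ccnd3, -0.20 for CDK4 and 0.97 for CDK6. With Actb and Gapdh they were 0.53 for Ccnd1, -0.0047 for Ccnd2, 0.57 for Ccnd3, -0.31 for CDK4 and 0.89 for CDK6. Relative to the plate median they were, for the same genes in that order, 0.49, -0.18, 0.36, -0.48 and 0.68. On these 3 scales the CDK6 level was apart. Over all cells, with undetected products at the limit, Ccnd1 differed by 1.09 and Ccnd3 by 0.77. The cause of these shifts was not tested. The CDK6 share at Ct 19 or below was -5.52 with the reference Ct as covariate, and this alternative, like that without late CDK6 products, the Ct 18 limit with that covariate and that without 1 cell, was chosen after seeing the data. At Ct 18 the Ccnd1 level had too few cells for a value. No paired analysis was possible because plate numbers only name plates within a chase time and no test was fitted. The Ct of a background product is unknown, as empty wells were not used.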

Other observations

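One 2-week cell on plate 1 had its CDK4 product at Ct 22.8, while the next latest of the 357 cells, on 5-week plate 2, had it at Ct 17.98. Without that cell the CDK4 level of 2-week plate 1 was -0.03, with an SD over cells of 0.77, and the difference between 5 and 2 weeks was -0.83.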
